A study of Mus musculus with 21 samples.

Results

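Repeated stimulation of the T cell receptor (TCR) was compared between 2 culture systems of mouse CD8 T cells, and the quantity measured for each gene was how far its response differed between them. The response of OT-I cultures (the OT-I effect, chronic minus acute) was taken first, and the response of polyclonal cultures (the polyclonal effect, chronic minus acute) was subtracted from it. All 12 libraries of the 4 groups entered, 3 per group, out of 21 libraries in the series. Genes with an RPKM of 1 or more in at least 3 of the 12 libraries were tested, which kept 12515 of the 13202 genes listed. RPKM is a read count scaled by gene length and by library depth. Effects and differences are on the log2(RPKM + 1) scale, where 1 stands for a 2-fold change and where changes of low genes are understated. A positive difference means that the OT-I effect lay above the polyclonal effect, and a gene was called higher or lower when limma's adjusted p for the difference was under 0.05.

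In the polyclonal system, CD8 T cells of C57BL/6 mice were isolated by negative selection out of spleen and inguinal nodes and activated on plates coated with anti-CD3 and anti-CD28 for 48 h. They were then kept in interleukin 2 either without (polyclonal acute) or with (polyclonal chronic) plate-bound anti-CD3, renewed every 48 h. The OT-I system used cells of OT-I TCR transgenic mice, whose receptor recognises a peptide of ovalbumin on MHC class I, and the peptide itself was the first stimulus. These cells were afterwards co-cultured with B16-F10, a mouse melanoma line that had been pretreated with interferon-γ, without (OT-I acute) or with (OT-I chronic) further peptide. Melanoma cells were thus present in both OT-I groups and in neither polyclonal group. All cells were harvested on day 8, and none of these 12 cultures received N-acetylcysteine. No age is given in the labels, nor whether the libraries of a group stem from separate animals or cultures, so p-values cover only the spread among these samples, and that spread may be technical. Strain, first stimulus, repeated stimulus and tumour cells all differ between the systems, so their parts in a difference cannot be told apart.

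As background, T cells that meet antigen once expand, kill and then rest, whereas T cells that meet it without pause drift towards exhaustion, a state of high inhibitory receptors, altered transcription factors and waning function. Anti-CD3 on plastic engages every TCR without a target cell, while a peptide on MHC class I is seen by a specific TCR on a cell that can be killed and that itself responds to interferon-γ. The integrated stress response, driven by the transcription factor ATF4, raises amino acid transport and synthesis when amino acids run short or proteins misfold. Sterol synthesis is switched on by SREBP factors when membrane cholesterol is low, as in growing cells.

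Depth was 5347355 to 15147347 reads per polyclonal library and 13121180 to 25218890 reads per OT-I library. Libraries of a group had Pearson r of 0.985 to 0.998 across genes and a chi-square per gene of 2.49 to 54.6, so that none was a copy of another within sampling noise. In 3 libraries weakly expressed genes had higher values than in the other libraries of the group. The lower quartile of RPKM was 2.91 in polyclonal acute library 2 (1.81 and 2.08 in the others), 2.74 in polyclonal chronic library 2 (2.16 and 2.07) and 4.32 in OT-I acute library 3 (3.73 and 3.62). Each of these was the shallowest library of its group, at 5347355, 7738101 and 13121180 reads. Where leaving out these 3 libraries (an alternative chosen after seeing the data) moves a count by over 1.5 times, that count is given too.

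Markers were checked before the results, and the polyclonal chronic libraries went against their label of CD8 T cells. RNA of the CD8 coreceptor chain Cd8a was 101, 101 and 102 RPKM in the polyclonal acute libraries and 8.30, 8.51 and 8.63 RPKM in the polyclonal chronic ones, but 110.1, 105 and 104 RPKM in OT-I acute and 101, 99.3 and 94.96 RPKM in OT-I chronic libraries. RNA of the coreceptor Cd4 was 68.8, 64.1 and 69.7 RPKM in polyclonal acute, 317, 303 and 317 RPKM in polyclonal chronic, 0.977, 1.35 and 1.97 RPKM in OT-I acute and 0.623, 0.512 and 0.675 RPKM in OT-I chronic libraries. Polyclonal acute libraries thus held both RNAs, polyclonal chronic ones far more Cd4 than Cd8a RNA, and OT-I libraries hardly any Cd4 RNA. Over all 7 CD8 T cell markers, which include the CD3 genes, the summed RPKM was 1828 to 2009 in polyclonal acute, 1381 to 1571 in polyclonal chronic, 1026 to 1293 in OT-I acute and 878 to 899.6 in OT-I chronic libraries. The differences were 3.32 for Cd8a (SE 0.0645, adjusted p = 1.72e-12) and -2.78 for Cd4 (SE 0.158, adjusted p = 1.50e-08). Fewer cells of a type and less RNA per cell cannot be told apart in these bulk libraries.

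Markers of other cells moved as well. The summed RPKM of 11 B and plasma cell markers ranged from 5.98 to 24.5 in polyclonal acute and from 721 to 845 in polyclonal chronic libraries, and from 22.4 to 30.5 in OT-I acute and from 413 to 426 in OT-I chronic libraries. All 3 tested CD4 T cell markers, 6 of the 11 B and plasma cell markers and 6 of 7 MHC class II genes were called lower in the difference, and none higher. All 3 tested NK cell markers and 3 of 6 myeloid markers were called higher, and none lower. Of 12 melanocyte and melanoma genes 5 were called lower and none higher. The 7 CD8 T cell markers split, with 3 called higher and 3 lower. Over all genes tested, 22.8% were called higher and 25.2% lower. The NK cell sum was 42.5 to 49.7 in polyclonal acute, 6.68 to 8.11 in polyclonal chronic, 5.04 to 7.25 in OT-I acute and 22.1 to 24.4 in OT-I chronic libraries. The 12 melanocyte and melanoma genes summed to 34.2 to 80.4 RPKM in polyclonal acute and 50.4 to 72.2 RPKM in polyclonal chronic libraries, against 8005 to 8309 RPKM in OT-I acute and 4701 to 4829 RPKM in OT-I chronic libraries. No marker measured here was at 0 in all libraries of a group. These shifts run along both effects, and their part in the results that follow was not tested.

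The difference was called for 6002 of 12515 genes (48.0%), 2848 higher (22.8%) and 3154 lower (25.2%). At an unadjusted p under 0.05 it would be 6744 genes. After rescaling of all libraries to a common median, 3141 genes were higher and 2871 lower, so which direction is the larger rests on the scaling. The OT-I effect was called for 6300 genes (50.3%), 2463 higher (19.7%) and 3837 lower (30.7%), and after rescaling 3043 were higher and 2987 lower. The polyclonal effect was called for 7278 genes (58.2%), 3261 higher (26.1%) and 4017 lower (32.1%). The difference was at least 2-fold and called for 683 genes higher (5.46%) and 1103 lower (8.81%). Both effects, which share no library, had a Pearson r of 0.342 across the 12515 genes, and of 0.393 across the 10836 genes measured in both systems. Genes are not independent of each other, and the libraries share a laboratory and a processing, so r is a description.

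Called genes split by which effect carried them. The polyclonal effect alone was called for 2085 of the 6002, and the OT-I effect alone for 1282. In 1376 genes both effects were called in the same direction with unequal size. In 1149 genes the effects were called in opposite directions, of which 486 rose in OT-I and fell in polyclonal cultures (3.88% of genes tested) and 663 did the reverse (5.30%). Without the 3 libraries with raised low genes, the reverse class held 1016 genes. Neither effect was called for the remaining 110. In 3735 of the 6002 genes (62.2%) the systems lay farther apart in acute than in chronic libraries, beside 7329 of all 12515 genes tested. Of the 1786 genes called with at least a 2-fold difference, 997 did so. A larger acute gap thus held for most genes tested and was not particular to called ones.

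**Figure D1:**
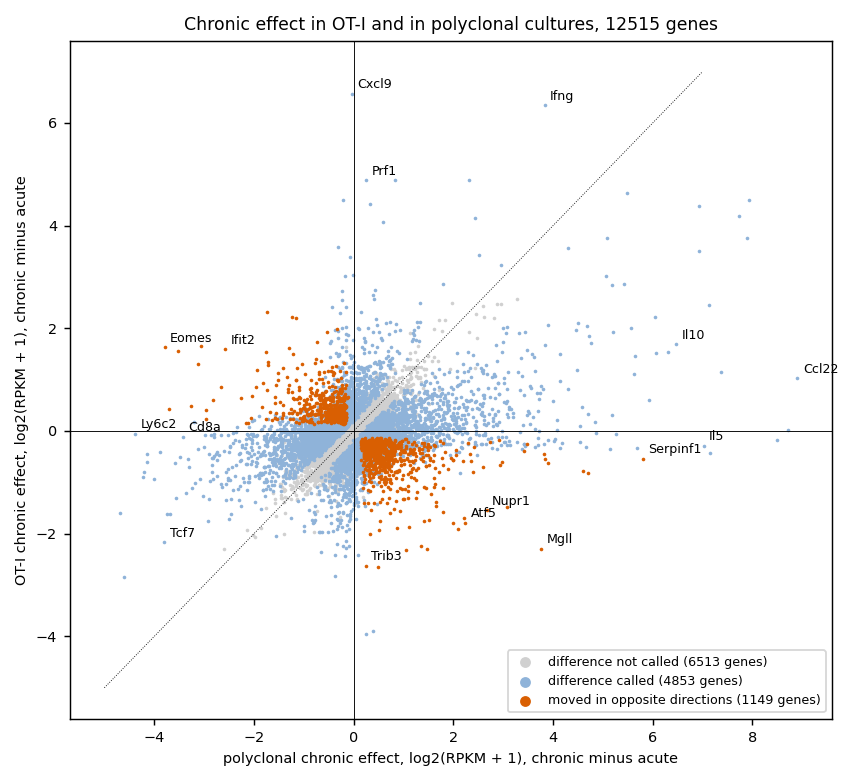
Chronic effect of each of the 12515 genes tested in polyclonal (x axis) and OT-I cultures (y axis), both on the log2(RPKM + 1) scale. Grey points are the 6513 genes whose difference was not called, blue points the other called genes, orange points the 1149 genes that moved in opposite directions, and the dotted diagonal marks equal effects; Cxcl9 and Prf1 lie near the vertical axis, Ccl22 and Il5 near the horizontal one.

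Genes of the cytotoxic granule responded more in OT-I cultures. Of 21 members tested, 15 were called higher and 3 lower, against 22.8% and 25.2% of all genes, and the median difference was 1.27 against -0.0226 over all genes. Perforin RNA (Prf1), the pore former of killing, was 282, 239 and 258 RPKM in polyclonal acute and 326, 281 and 323 RPKM in polyclonal chronic libraries. In OT-I acute libraries it was 26.2, 24.7 and 24.7 RPKM, and in OT-I chronic libraries 794, 769 and 757 RPKM. The polyclonal groups overlapped slightly, while the OT-I groups were far apart, with the OT-I acute libraries lowest of all. The OT-I effect was 4.89 (SE 0.0745) and the polyclonal effect 0.25 (SE 0.0745), which left a difference of 4.63 (SE 0.105, 95% CI 4.40 to 4.86, adjusted p = 5.89e-12).

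Granzymes, the serine proteases that enter through perforin pores, followed with a range of sizes. Where a pair of changes is given here and below with no system named, polyclonal cultures come first and OT-I cultures second. Granzyme E RNA (Gzme) was 48.4, 69.5 and 62.9 RPKM in polyclonal acute and 80.4, 69.3 and 76.3 RPKM in polyclonal chronic libraries, and 11.7, 12.96 and 12.3 RPKM in OT-I acute and 281, 276 and 293 RPKM in OT-I chronic libraries. The difference was 4.08 for Gzme, 3.49 for Gzmd and 3.34 for Gzma. These granzymes have close copies among which reads may be split wrongly. Gzma was, beside Nkg7 and Serpinb9, a member with opposite effects, and it fell from 4385 ± 31.5 to 1984 ± 188 RPKM (SD, n = 3) in polyclonal cultures and rose from 84.9 ± 11.6 to 389.8 ± 14.6 RPKM in OT-I cultures. Granzyme B RNA (Gzmb) rose in both, from 2886 ± 22.1 to 4158 ± 359.8 RPKM and from 2986 ± 281 to 7259.6 ± 119 RPKM, with a difference of 0.76 (SE 0.227, adjusted p = 0.0139). Serglycin (Srgn), the proteoglycan that packs granules, went the other way with a difference of -1.77. NK cell markers, which moved in the same direction as this list, are given above, and their part was not tested.

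**Figure D2:**
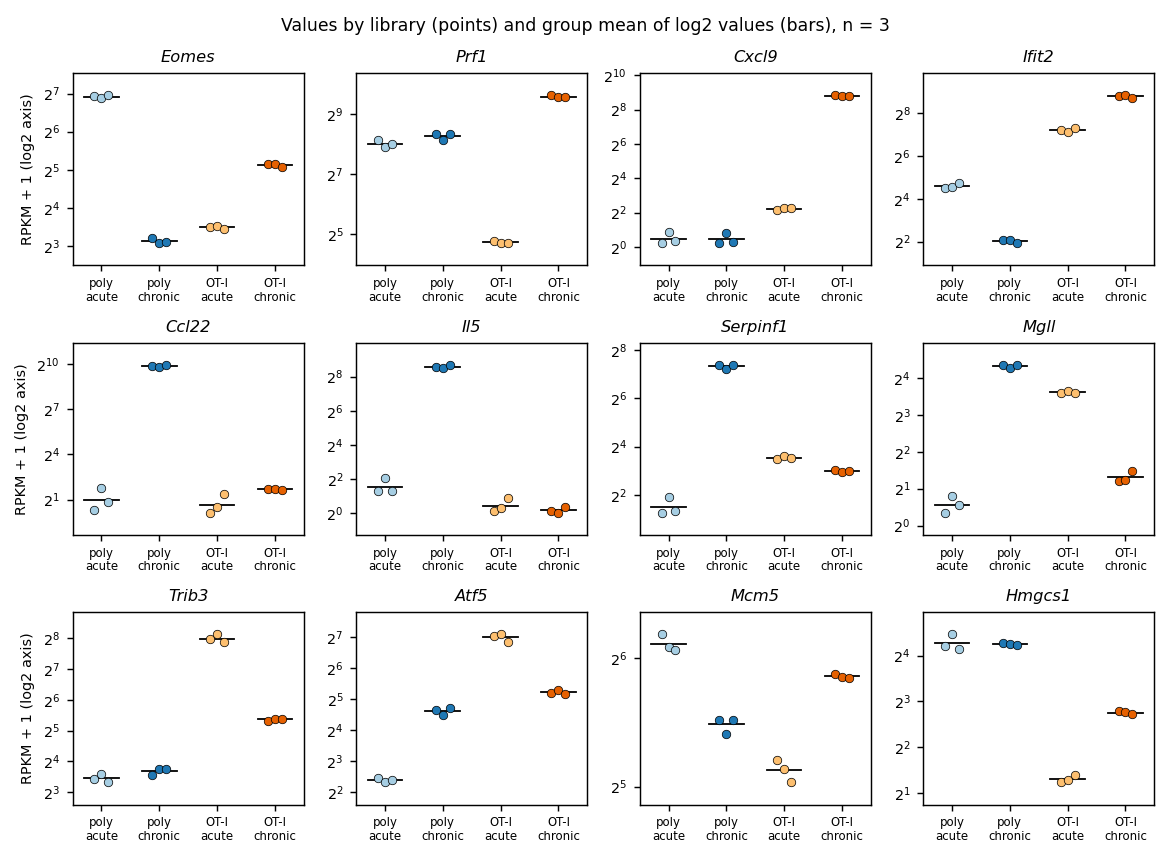
RPKM + 1 on a log2 axis in each of the 12 libraries for 12 genes, with 1 point per library and a bar at the mean of the log2 values (n = 3 per group). Eomes and Ifit2 fell in polyclonal and rose in OT-I cultures, Mgll and Atf5 did the reverse, and Ccl22, Il5 and Serpinf1 were high in polyclonal chronic libraries alone among the 4 groups.

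Secreted signals mostly rose in each system. Of 34 cytokine and chemokine genes tested, 21 were called lower and 10 higher, with a median difference of -1.57, a median OT-I effect of 1.07 and a median polyclonal effect of 3.72. In OT-I cultures 24 rose, and in polyclonal cultures 27. The members described next were chosen after their values were seen, apart from those with the largest differences and Ifng. Ccl22, a chemokine that attracts CCR4-bearing T cells, was 0.259, 2.38 and 0.773 RPKM in polyclonal acute and 937, 891 and 986 RPKM in polyclonal chronic libraries. In OT-I libraries it was 0.0915, 0.404 and 1.64 RPKM in acute and 2.33, 2.32 and 2.11 RPKM in chronic cells. Only the polyclonal chronic libraries were high, and the difference was -7.87 (SE 0.457, adjusted p = 1.76e-08), the lowest among the genes named.

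Il5, the growth factor of eosinophils, was 1.48, 3.17 and 1.52 RPKM in polyclonal acute and 378, 363 and 409 RPKM in polyclonal chronic libraries, and under 1 RPKM in all 6 OT-I libraries. Il4 (difference -6.01) and the helper cytokine Il21 (-5.31) had the same pattern. Il13 rose in both systems, from 3.79 ± 0.811 to 1127 ± 115 RPKM in polyclonal and from 0.934 ± 0.999 to 23.3 ± 1.59 RPKM in OT-I cultures, with a difference of -4.12 (SE 0.3499). Il10, an anti-inflammatory cytokine, rose from 3.43 ± 1.38 to 380.2 ± 15.7 RPKM and from 3.02 ± 0.614 to 11.9 ± 0.458 RPKM, with a difference of -4.78. The type 2 factor Gata3 rose from 34.4 ± 0.533 to 121 ± 3.46 RPKM in polyclonal cultures and fell from 8.47 ± 0.501 to 5.02 ± 0.379 RPKM in OT-I cultures. CD4 T cell and B cell markers rose in the same polyclonal chronic libraries, and their part in these values was not tested.

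Ifng, which encodes interferon-γ, rose from 7.38 ± 0.9603 to 118 ± 9.94 RPKM in polyclonal and from 6.82 ± 0.635 to 632 ± 11.9 RPKM in OT-I cultures, a difference of 2.51 (SE 0.122, adjusted p = 3.67e-09). Cxcl9, a CXCR3 ligand, was 3.49, 3.79 and 3.91 RPKM in OT-I acute and 455, 444 and 446 RPKM in OT-I chronic libraries. In polyclonal libraries it stayed under 1 RPKM in acute (0.161, 0.837 and 0.281) and chronic cells (0.1597, 0.756 and 0.227). Cxcl9 therefore separated the OT-I groups alone, with a difference of 6.61 (SE 0.237, 95% CI 6.10 to 7.13). Its relatives Cxcl10 (from 333 ± 11.8 to 1777 ± 30.9 RPKM) and Cxcl11 (from 19.3 ± 1.24 to 163 ± 1.805 RPKM) rose in OT-I cultures, while their polyclonal effects of -0.43 and -0.18 were not called. OT-I libraries hold RNA of melanoma cells as well, and which cells made these chemokines was not measured. Xcl1, which attracts cross-presenting dendritic cells, fell from 7.19 ± 0.567 to 1.48 ± 0.568 RPKM in polyclonal cultures and rose from 2.795 ± 0.493 to 17.8 ± 1.39 RPKM in OT-I cultures. Fasl, the death ligand, had a difference of 2.32.

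Receptors did not move as a block. Among 16 inhibitory receptors 7 were called higher and 8 lower, and the median difference was -0.46. Pdcd1, which encodes PD-1, was 33.1, 28.9 and 30.9 RPKM in polyclonal acute, 55.3, 47.3 and 55.3 RPKM in polyclonal chronic, 19.3, 18.8 and 15.2 RPKM in OT-I acute and 58.8, 56.6 and 56.5 RPKM in OT-I chronic libraries. It rose in both systems without overlap, and more in OT-I cultures, where the acute level was the lowest (difference 0.90, SE 0.124, adjusted p = 5.53e-05). Havcr2 (TIM-3) rose from 70.7 ± 3.98 to 86.4 ± 2.398 RPKM and from 17.8 ± 0.569 to 74.7 ± 2.85 RPKM (difference 1.72). Tigit had a difference of -1.31, with rises from 54.6 ± 2.59 to 207 ± 9.705 RPKM in polyclonal and from 55.8 ± 2.51 to 84.3 ± 4.698 RPKM in OT-I cultures.

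Lag3, an MHC class II receptor, rose by like amounts. Its RNA was 106, 102 and 95.4 RPKM in polyclonal acute, 312, 284 and 316 RPKM in polyclonal chronic, 34.3, 38.3 and 30.4 RPKM in OT-I acute and 88.7, 90.2 and 90.4 RPKM in OT-I chronic libraries. The difference of -0.21 was not called (95% CI -0.45 to 0.03, adjusted p = 0.132). It was called without OT-I acute library 3, at -0.29 (adjusted p = 0.0159), and without all 3 libraries with raised low genes, at -0.35 (adjusted p = 0.00491). Btla (difference -3.48) and Cd200 (-3.27) rose more in polyclonal cultures. Markers of B and plasma cells rose in both systems, and their part in these values was not tested. Cd160, which marks cytotoxic cells, fell from 25.1 ± 1.55 to 0.772 ± 0.143 RPKM in polyclonal and from 5.67 ± 0.217 to 4.02 ± 0.566 RPKM in OT-I cultures (difference 3.47).

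Costimulatory receptors had 5 of 14 members called higher and 7 lower. Tnfrsf4 (OX40) rose from 22.9 ± 2.05 to 255 ± 9.46 RPKM and from 48.9 ± 5.31 to 80.2 ± 3.98 RPKM (difference -2.72). Slamf1 rose from 2.900 ± 0.865 to 22.2 ± 1.55 RPKM in polyclonal and fell from 4.96 ± 0.129 to 2.65 ± 0.06998 RPKM in OT-I cultures (difference -3.31). Homing and cytokine receptors had 11 of 24 higher and 11 lower. Ccr2, the receptor that draws cells to inflamed tissue, fell from 519 ± 34.3 to 53.1 ± 0.259 RPKM in polyclonal and rose from 37.2 ± 2.27 to 52.1 ± 1.39 RPKM in OT-I cultures (difference 3.74). Chronic libraries of both systems thus ended at nearly the same Ccr2 level. The interleukin 18 receptor genes Il18r1 (3.34) and Il18rap (3.53) were higher and the follicular homing receptor Cxcr5 (-4.25) was lower in the difference.

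Transcription factors of T cell fate divided as well, with 9 of 24 tested called higher and 10 lower. The T-box factor Eomes, which drives cytotoxic and memory programmes, had the highest difference among genes measured in both systems, 5.43 (SE 0.0739, 95% CI 5.27 to 5.59, adjusted p = 6.49e-14). It was 120.5, 117 and 123 RPKM in polyclonal acute and 8.24, 7.41 and 7.64 RPKM in polyclonal chronic libraries. In the OT-I system it was 10.4, 10.4 and 9.89 RPKM in acute and 34.5, 34.3 and 32.9 RPKM in chronic libraries. The polyclonal acute libraries were the highest of the 12, and the direction of change was opposite with no overlap in either system. Its relative Tbx21 (T-bet) had a difference of 0.02, which was not called.

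Tcf7, the factor that keeps memory and stem-like T cells, fell in both systems, from 48.8 ± 1.71 to 2.59 ± 0.283 RPKM and from 31.7 ± 0.543 to 6.28 ± 0.195 RPKM. It fell less in OT-I cultures (difference 1.63, SE 0.0917). Klf2, a factor of quiescence and recirculation, likewise fell less (difference 1.76). Batf3, an AP-1 factor of dendritic and T cells, rose from 1.34 ± 0.675 to 53.6 ± 1.25 RPKM in polyclonal cultures, while OT-I cultures already held 55.3 ± 8.85 RPKM in acute cells and 75.8 ± 2.77 RPKM in chronic cells (difference -4.12). Tox, the HMG-box factor of exhaustion, was low in all groups, at 1.05 ± 0.509 and 1.26 ± 0.0368 RPKM in polyclonal and 1.41 ± 0.268 and 0.637 ± 0.137 RPKM in OT-I cultures. Its difference of -0.73 (adjusted p = 0.0395) was called in only 3 of the 12 fits that each left out 1 library. Leaving out polyclonal acute library 1 or 3, polyclonal chronic library 1 or 3, OT-I acute library 2 or 3 or any OT-I chronic library ended the call, with adjusted p up to 0.0987.

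Genes that the TCR itself induces rose in both systems, 23 of 33 in OT-I and 24 of 33 in polyclonal cultures, with 11 called higher and 16 lower in the difference and a median of -0.35. Spry1, which dampens Ras signalling, rose from 0.396 ± 0.0368 to 13.96 ± 1.03 RPKM in polyclonal and fell from 6.18 ± 0.305 to 4.51 ± 0.249 RPKM in OT-I cultures (difference -3.80). The phosphatase gene Dusp4 had a difference of -2.53. Irf8, a factor of activated CD8 T cells and B cells, had the highest difference of the list at 2.32, falling from 35.4 ± 2.81 to 27.9 ± 2.81 RPKM in polyclonal and rising from 16.99 ± 1.66 to 69.8 ± 0.831 RPKM in OT-I cultures.

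**Figure D3:**
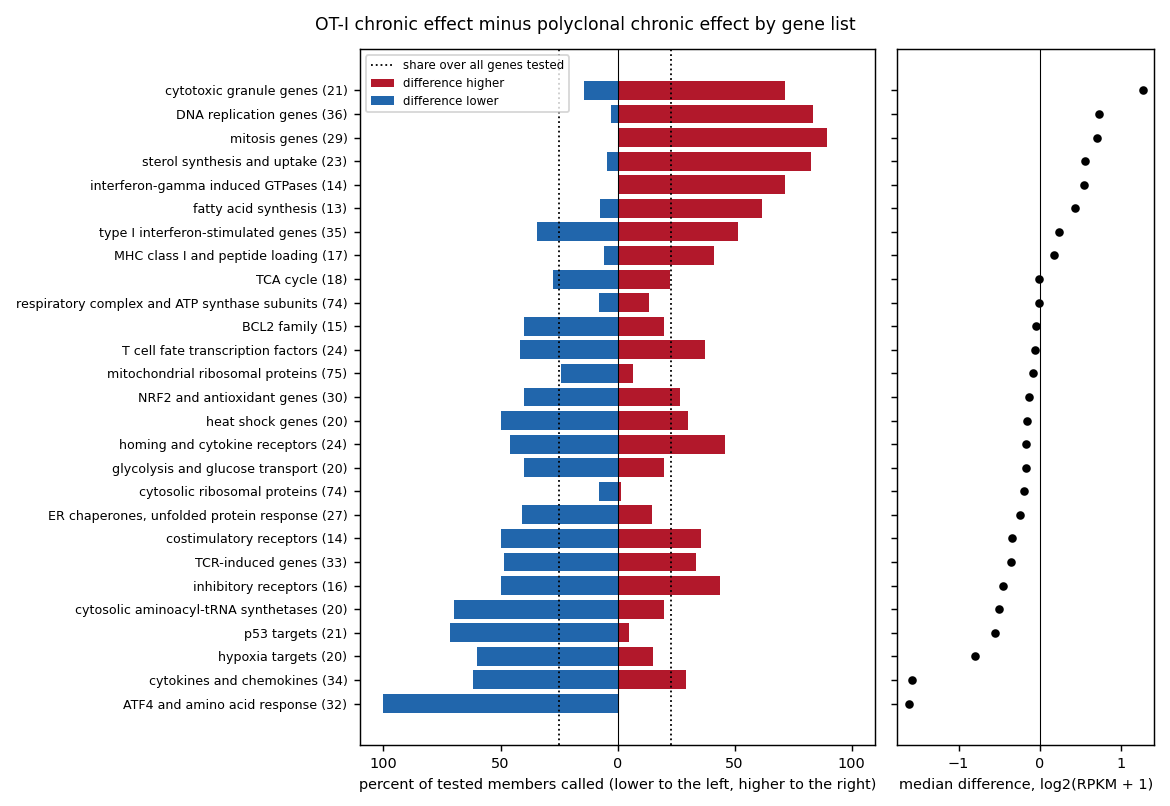
Left, percent of the tested members of each of 27 gene lists whose difference was called lower (blue, drawn to the left) or higher (red, drawn to the right), with the number tested in parentheses and dotted lines at the shares over all genes tested (25.2% lower and 22.8% higher). Right, the median difference of each list on the log2(RPKM + 1) scale, from -1.62 for the ATF4 list to 1.27 for cytotoxic granule genes.

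Interferon-stimulated genes differed within their family. Of 35 type I interferon-stimulated genes 18 were called higher and 12 lower, with a median of 0.24. Ifit2, an antiviral RNA-binding protein, was 21.7, 22.8 and 26.05 RPKM in polyclonal acute, 3.27, 3.27 and 2.79 RPKM in polyclonal chronic, 147, 137 and 157 RPKM in OT-I acute and 455, 457 and 423 RPKM in OT-I chronic libraries. It fell in one system and rose in the other, and every OT-I library lay above every polyclonal one (difference 4.17, SE 0.108). Ifit3 (difference 2.91) fell in polyclonal cultures and had no called effect in OT-I ones, while Isg15 (-1.32) and Ifi27l2a (-1.89) were on the lower side. Interferon-γ induced GTPases, which attack the vacuoles of pathogens, had 10 of 14 members called higher and none lower, with a median of 0.55. Gbp4 fell from 90.5 ± 4.68 to 56.2 ± 8.87 RPKM in polyclonal and rose from 108 ± 5.81 to 233 ± 4.91 RPKM in OT-I cultures (difference 1.79). All 14 lay higher in OT-I than in polyclonal libraries in acute cultures already, and some have close copies. MHC class I and peptide loading genes had 7 of 17 called higher and 1 lower, H2-T23 at -0.78. Lower were 3 without the 3 libraries with raised low genes, and 2 with voom on recovered reads or with all 21 libraries in the fit.

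Most targets of ATF4 moved in opposite directions in the 2 systems. All 32 members tested were called lower in the difference, against 25.2% of all genes, and the median was -1.62. The count was 30 to 32 under the other settings, and 17 with a 2-fold threshold. In OT-I cultures 27 members fell and 1 rose (median -0.9996), and in polyclonal cultures 28 rose and none fell (median 0.64). Both effects were called with opposite signs in 24. All 32 were higher in OT-I acute than in polyclonal acute libraries (median gap 2.06), and the gap was smaller in chronic libraries for all 32 (median 0.46). Of all 12515 genes tested, 7204 were higher in OT-I acute libraries, and the gap was smaller in chronic libraries for 7329. Melanocyte and melanoma genes fell in the same direction between OT-I acute and OT-I chronic libraries, with a median effect of -0.88, and their part in these falls was not tested.

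Among the factors of this response, Trib3, a pseudokinase induced by ATF4, was 9.82, 11.03 and 8.98 RPKM in polyclonal acute and 10.7, 12.5 and 12.6 RPKM in polyclonal chronic libraries. It was 248, 277 and 234 RPKM in OT-I acute and 38.7, 40.8 and 40.8 RPKM in OT-I chronic libraries. Polyclonal groups overlapped at the edge and the OT-I acute libraries stood far above the rest (difference -2.87, SE 0.118, adjusted p = 8.42e-10). Ddit3 (CHOP), the factor of stress-induced death, fell from 723 ± 86.6 to 179 ± 4.47 RPKM in OT-I cultures and rose from 26.9 ± 3.39 to 33.9 ± 1.14 RPKM in polyclonal ones (difference -2.33). Atf5, a relative of ATF4, was 4.43, 3.94 and 4.15 RPKM in polyclonal acute, 23.9, 21.3 and 25.04 RPKM in polyclonal chronic, 132, 136 and 116 RPKM in OT-I acute and 35.6, 38.5 and 34.7 RPKM in OT-I chronic libraries. No groups overlapped, and Atf5 crossed from the lowest to a middle level in one system while it dropped to a middle level in the other (difference -4.02, SE 0.108). Nupr1, a stress-induced chromatin protein, rose from 3.57 ± 2.099 to 26.3 ± 2.12 RPKM and fell from 302 ± 31.1 to 103 ± 4.57 RPKM (difference -4.21). Atf3 was the 1 member that rose in OT-I cultures, from 37.8 ± 1.92 to 63.3 ± 1.71 RPKM, and it rose more in polyclonal ones, from 2.19 ± 0.363 to 22.9 ± 1.48 RPKM (difference -2.18).

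Enzymes and transporters of the response followed. Cth, which makes cysteine from cystathionine, was 0.173, 1.97 and 0.518 RPKM in polyclonal acute, 13.9, 12.8 and 14.6 RPKM in polyclonal chronic, 27.9, 28.4 and 26.02 RPKM in OT-I acute and 9.98, 8.92 and 8.72 RPKM in OT-I chronic libraries. The groups did not overlap, and the difference of -4.56 (SE 0.335) was the lowest of the list. Asns, asparagine synthetase, rose from 51.9 ± 0.592 to 93.1 ± 2.63 RPKM and fell from 253 ± 10.8 to 145 ± 0.833 RPKM (difference -1.63). Chac1, which breaks down glutathione, had a difference of -2.21 and the cystine transporter Slc7a11 one of -1.90. The 20 cytosolic aminoacyl-tRNA synthetases, which load amino acids onto tRNA, had 14 called lower and 4 higher, with a median of -0.51. The share called lower was 70%, while that called higher (20%) was near the share of all genes. Those lowest were Eprs (-1.31), Wars (-1.27) and Sars (-1.18), and Vars (0.72) was the highest.

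Promoter windows are shown because many genes of this response carry a known binding element of ATF4 and C/EBP factors, here searched as TGATGNAA on both strands in the 250 bases before the start of the gene. RefSeq sequence on the build GRCm38.p6 was used, which is not the build of the expression table, and genes were joined by symbol. The element was found in 7 of the 26 ATF4 list members with a promoter sequence (26.9%) and in 3 of 12 tRNA synthetases (25%). It was found in 2.52% of the 9683 genes tested that had one and in 3.91% of all 27025 promoters. Of the genes called lower in the difference 75 of 2441 held it (3.07%), and of those called higher 57 of 2189 (2.6%). Of the genes that fell in OT-I and rose in polyclonal cultures, 26 of 500 held it (5.2%), and of those that moved the other way 10 of 382 (2.62%). The class that fell in OT-I cultures includes 24 ATF4 list members and 8 tRNA synthetases, so its share is not separate from theirs. A match is a description of letters and not evidence of binding. The windows of 5 members described above follow, from 5′ to 3′ on the gene's strand and with the element in capitals; in Slc7a11 it occurs in both orientations, and in Atf3, Chac1 and Nupr1 as its reverse complement.
Asns, chr6:7693210-7693459, minus strand: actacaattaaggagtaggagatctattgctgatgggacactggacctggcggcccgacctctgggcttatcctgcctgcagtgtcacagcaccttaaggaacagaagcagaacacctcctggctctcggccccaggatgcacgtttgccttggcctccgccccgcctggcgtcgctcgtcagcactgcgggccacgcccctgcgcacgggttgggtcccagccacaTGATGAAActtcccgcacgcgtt
Atf3, chr1:191183334-191183583, minus strand: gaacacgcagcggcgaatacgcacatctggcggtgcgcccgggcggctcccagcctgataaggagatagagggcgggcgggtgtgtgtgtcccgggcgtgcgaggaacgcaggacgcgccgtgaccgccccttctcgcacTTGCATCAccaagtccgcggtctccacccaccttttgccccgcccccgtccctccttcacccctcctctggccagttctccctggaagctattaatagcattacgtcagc
Chac1, chr2:119350992-119351241, plus strand: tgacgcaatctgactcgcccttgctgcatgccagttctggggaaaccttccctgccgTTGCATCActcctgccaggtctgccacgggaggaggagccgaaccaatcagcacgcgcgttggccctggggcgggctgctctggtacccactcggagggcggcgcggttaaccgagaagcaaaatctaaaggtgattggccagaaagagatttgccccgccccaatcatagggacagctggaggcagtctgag
Nupr1, chr7:126625471-126625720, minus strand: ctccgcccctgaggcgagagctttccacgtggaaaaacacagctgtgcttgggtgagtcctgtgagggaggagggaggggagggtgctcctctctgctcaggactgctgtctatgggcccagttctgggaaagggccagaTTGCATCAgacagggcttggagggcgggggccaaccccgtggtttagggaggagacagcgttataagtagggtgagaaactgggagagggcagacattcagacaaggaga
Slc7a11, chr3:50443614-50443863, minus strand: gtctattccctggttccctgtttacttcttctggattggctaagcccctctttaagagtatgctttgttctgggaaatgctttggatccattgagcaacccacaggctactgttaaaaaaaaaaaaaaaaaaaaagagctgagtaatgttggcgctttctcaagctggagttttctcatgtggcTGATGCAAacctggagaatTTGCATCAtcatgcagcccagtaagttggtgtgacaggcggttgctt

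Counted from its 5′ end as printed, the element lies nearest to the start of the gene in Asns, 23 bases before it. In Chac1 it lies farthest of the 5, at 193 bases. Slc7a11 was the lowest in RPKM, at 0.463 ± 0.454 and 0.993 ± 0.343 RPKM in polyclonal acute and chronic cultures, where its effect was not called, and it fell from 8.11 ± 1.41 to 2.38 ± 0.257 RPKM in OT-I cultures.

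**Figure D4:**
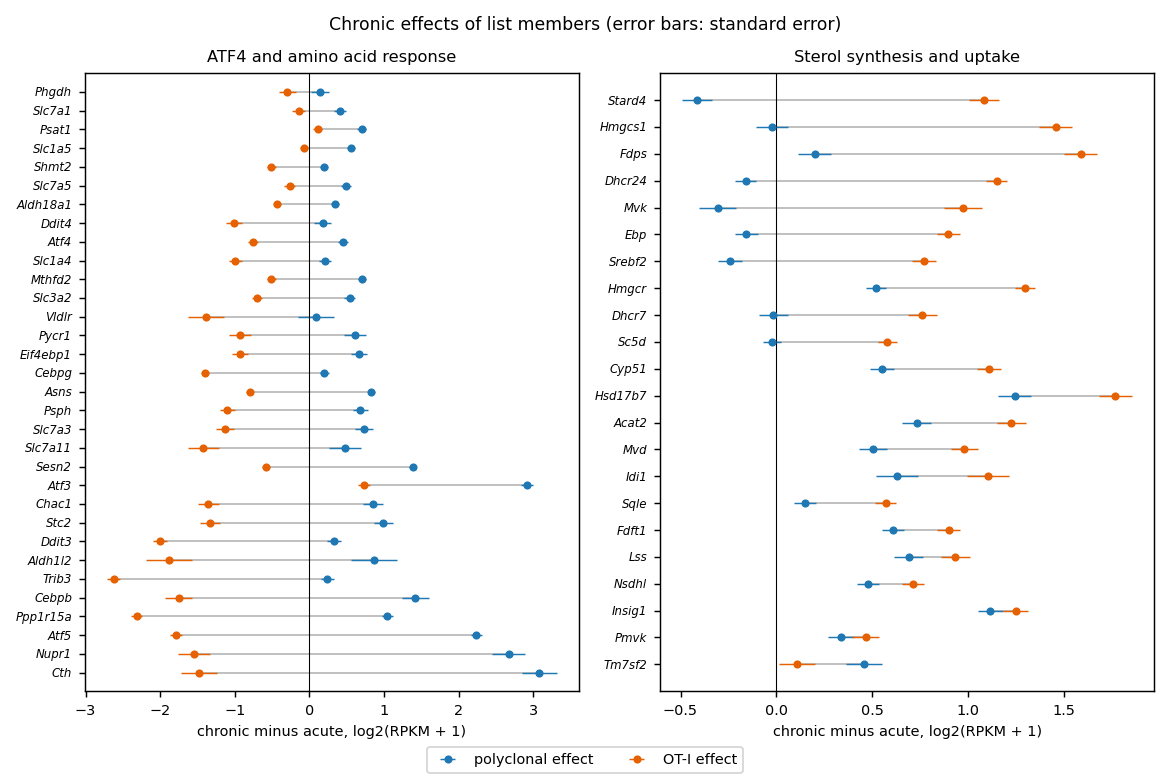
Chronic effects (chronic minus acute, log2(RPKM + 1), with standard errors from the fit) of the 32 tested members of the ATF4 list (left) and 22 of the 23 of the sterol list (right), polyclonal in blue and OT-I in orange, ordered by their difference. OT-I points lie left of the polyclonal points for all 32 ATF4 list members and right of them for all sterol genes shown except Tm7sf2.

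Sterol synthesis and uptake genes were called higher in 19 of 23 cases and lower in 1, with a median difference of 0.56. The lower gene, Tm7sf2, was at -0.35, and its call was lost with a pseudocount of 0.1, with no filter on low values, after rescaling, with voom, without the 3 libraries with raised low genes and in each fit without polyclonal acute library 2 or 3, polyclonal chronic library 1 or 3, OT-I acute library 1 or 3 or OT-I chronic library 1 or 2. In OT-I cultures 22 rose (median 0.98), while in polyclonal cultures 13 rose and 6 fell (median 0.34). Acute OT-I libraries were below acute polyclonal ones for all 23 (median gap -1.39). The gap was smaller in chronic cells for 22, beside 7329 of all 12515 genes tested. Hmgcs1, which makes the precursor of mevalonate, was 17.7, 21.1 and 16.7 RPKM in polyclonal acute, 18.4, 18.2 and 17.7 RPKM in polyclonal chronic, 1.34, 1.42 and 1.63 RPKM in OT-I acute and 5.88, 5.78 and 5.63 RPKM in OT-I chronic libraries. The polyclonal groups overlapped and the OT-I groups did not (difference 1.48, SE 0.1202, adjusted p = 4.37e-07). The cholesterol carrier gene Stard4 fell from 58.6 ± 1.81 to 43.8 ± 3.17 RPKM in polyclonal and rose from 14.9 ± 1.47 to 32.7 ± 2.24 RPKM in OT-I cultures (difference 1.4969). Insig1, which restrains SREBP, rose in both with a difference of 0.13 that was not called. Fatty acid synthesis genes had 8 of 13 called higher and 1 lower, with Fads2, a desaturase, at 1.42.

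For this list the sterol element was searched as TCACNCCAC on both strands. It was found in 1 of the 16 list members with a promoter sequence (6.25%), Hmgcs1, against 1.26% of the genes tested that had one and 1.22% of all promoters. Its window is shown with the element in capitals, 137 bases before the start when counted from the 5′ end of the element.
Hmgcs1, chr13:119690101-119690350, plus strand: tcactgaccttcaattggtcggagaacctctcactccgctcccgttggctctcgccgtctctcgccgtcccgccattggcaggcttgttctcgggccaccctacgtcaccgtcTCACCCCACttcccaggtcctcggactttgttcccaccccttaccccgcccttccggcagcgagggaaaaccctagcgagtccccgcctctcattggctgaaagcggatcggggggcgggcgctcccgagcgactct

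DNA replication genes were called higher in 30 of 36 cases and lower in 1, with a median difference of 0.73. In OT-I cultures 29 rose and 4 fell, in polyclonal cultures 3 rose and 21 fell, and 17 were called with opposite signs. Mcm5, a subunit of the replicative helicase, was 71.8, 66.9 and 65.8 RPKM in polyclonal acute, 44.95, 41.5 and 44.95 RPKM in polyclonal chronic, 35.9, 34.2 and 31.7 RPKM in OT-I acute and 57.9, 56.7 and 56.6 RPKM in OT-I chronic libraries. Groups did not overlap in either system, the polyclonal acute libraries were the highest and the OT-I acute ones the lowest (difference 1.36, SE 0.0814, adjusted p = 2.33e-08). Rrm2, the regulated subunit of ribonucleotide reductase, fell from 140.0 ± 1.64 to 113 ± 5.86 RPKM and rose from 57.4 ± 0.954 to 115 ± 4.68 RPKM (difference 1.30). Rfc3, a clamp loader subunit, was the exception (difference -1.0039), and 3 were lower without OT-I acute library 3 or without all 3 libraries with raised low genes.

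Mitosis genes were called higher in 26 of 29 cases and lower in none, with a median difference of 0.70, but by another route. All 29 fell in polyclonal cultures (median -0.96), and in OT-I cultures 16 fell and 2 rose (median -0.20). Plk1, a kinase of mitotic entry, was 60.4, 55.5 and 58.9 RPKM in polyclonal acute, 27.1, 25.6 and 27.02 RPKM in polyclonal chronic, 28.9, 29.1 and 27.6 RPKM in OT-I acute and 31.97, 30.9 and 32.3 RPKM in OT-I chronic libraries. The polyclonal acute libraries alone were high (difference 1.25, SE 0.0711). Mki67, a marker of dividing cells, fell from 167 ± 13.8 to 70.9 ± 2.34 RPKM in polyclonal cultures and was at 52.999 ± 8.05 and 45.8 ± 4.75 RPKM in OT-I acute and chronic ones, where its effect of -0.20 was not called (difference 1.02, SE 0.147). Melanoma cells divide too, and their share of this RNA in OT-I libraries was not measured. Acute libraries were farther apart than chronic ones for 32 of the 36 replication genes and 27 of the 29 mitosis genes, beside 7329 of all 12515 genes tested.

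**Figure D5:**
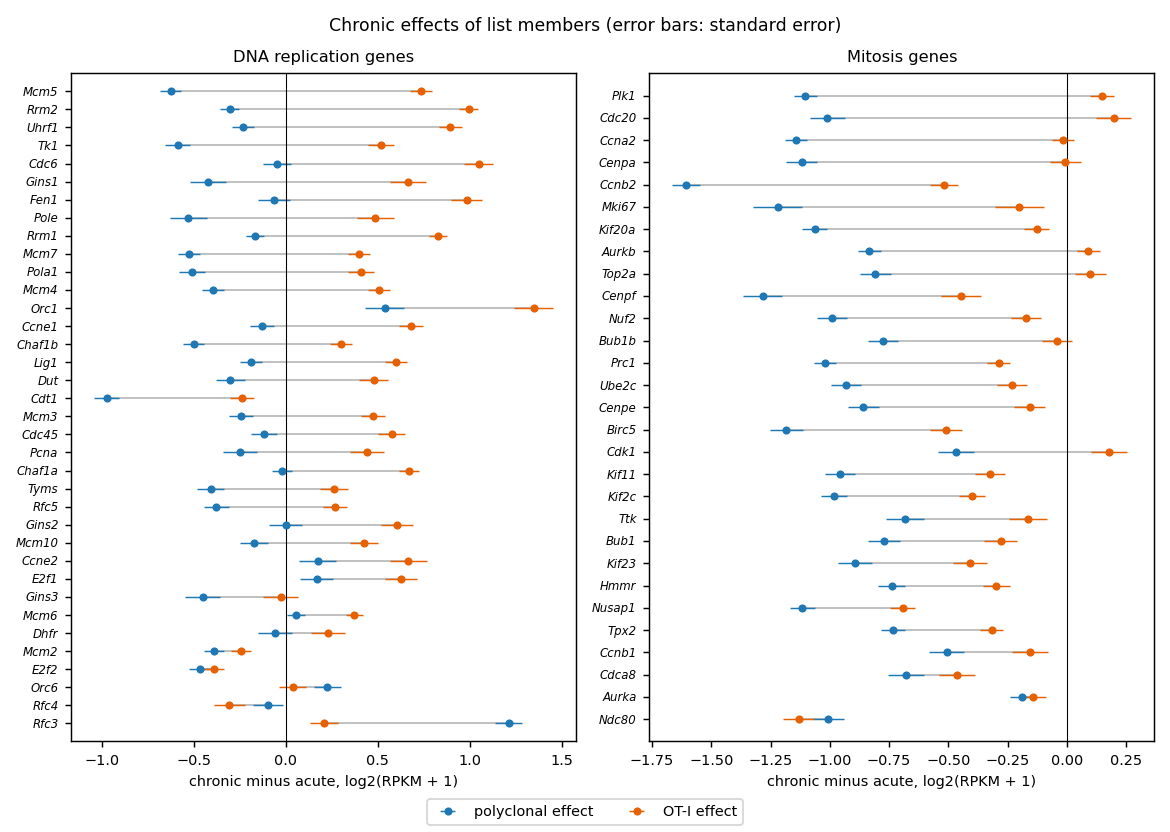
Chronic effects (chronic minus acute, log2(RPKM + 1), with standard errors from the fit) of the 36 DNA replication genes (left) and 29 mitosis genes (right), polyclonal in blue and OT-I in orange, ordered by their difference. Most replication genes lie to the right of 0 in OT-I and to the left in polyclonal cultures, while all 29 mitosis genes lie to the left of 0 in polyclonal cultures.

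Targets of p53 were called lower in 15 of 21 cases and higher in 1, with a median of -0.55. In polyclonal cultures 14 rose (median 1.09), and in OT-I cultures 8 (median 0.10). Gadd45a, a damage-induced growth arrest gene, had the lowest difference of the list at -2.53. Pmaip1 (NOXA), which promotes apoptosis, rose from 14.2 ± 1.51 to 88.99 ± 1.39 RPKM in polyclonal and from 12.8 ± 0.961 to 16.9 ± 1.05 RPKM in OT-I cultures (difference -2.20). Sesn1 was the member called higher, at 1.57, and without polyclonal acute library 2 there were 2. Hypoxia targets had 12 of 20 called lower and 3 higher (median -0.80). Vegfa, the angiogenic factor, rose from 4.13 ± 0.257 to 8.97 ± 0.531 RPKM and fell from 33.9 ± 0.603 to 15.1 ± 0.847 RPKM (difference -2.08), and Hif1a, the hypoxia factor itself, rose from 118 ± 5.88 to 268 ± 2.91 RPKM and fell from 149 ± 10.6 to 89.4 ± 3.36 RPKM (difference -1.91).

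Chaperone genes rose in both systems for the most part. Among 27 genes of the endoplasmic reticulum and unfolded protein response 11 were called lower and 4 higher, and 17 rose in OT-I and 23 in polyclonal cultures. Without the 3 libraries with raised low genes, 17 were called lower. The chaperone gene Hspa5 (BiP) had a difference of -1.31 and the oxidase gene Ero1l one of -2.01, while Sdf2l1 was highest at 1.25. Heat shock genes had 6 of 20 called higher and 10 lower, beside 22.8% and 25.2% of all genes. Of the NRF2 and antioxidant genes 8 of 30 were higher (26.7%, near the share of all genes) and 12 lower (40.0%). Hmox1, haem oxygenase, rose from 5.99 ± 0.627 to 15.8 ± 1.41 RPKM and fell from 82.2 ± 3.07 to 35.3 ± 0.723 RPKM (difference -2.46), and Osgin1, an NRF2 target, did the reverse (difference 2.10). The BCL2 family had 3 of 15 higher, likewise near the share of all genes, and 6 lower.

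Respiration, which makes ATP in mitochondria, came next. Among 74 respiratory complex and ATP synthase subunits 10 were called higher (13.5%) and 6 lower (8.11%), beside 22.8% and 25.2% of all genes, with a median of -0.011. Without the 3 libraries with raised low genes 26 were called lower, and without OT-I acute library 3 alone 20. Without polyclonal acute library 2 it was 10, without polyclonal chronic library 2 it was 14, and with all 21 libraries in the fit 13. Ndufv2, a complex I subunit, had a difference of -0.97. Of 18 TCA cycle genes 4 were higher (22.2%) and 5 lower (27.8%), both near the shares of all genes. Among them Idh2, mitochondrial isocitrate dehydrogenase, rose from 7.75 ± 1.14 to 23.7 ± 2.100 RPKM and fell from 64.7 ± 1.92 to 40.4 ± 1.67 RPKM (difference -2.17). Glycolysis and glucose transport genes had 4 of 20 higher (20%, near the share of all genes) and 8 lower (40%). Cytosolic ribosomal protein genes had 1 of 74 higher and 6 lower, but 34 lower without the 3 libraries and 29 without OT-I acute library 3. The higher count was 4 without OT-I acute library 1, 2 without OT-I acute library 2 or polyclonal acute library 1 and 3 with all 21 libraries in the fit. The lower count was 10 without polyclonal chronic library 2, 3 without OT-I acute library 1 or 2, 2 without OT-I chronic library 2 and 16 with all 21 libraries in the fit. Of 75 mitochondrial ribosomal protein genes 5 were higher (6.67%) and 18 lower (24%, near the share of all genes). Without the 3 libraries 3 were higher and 33 lower. The higher count was 8 without OT-I acute library 2 and 10 with all 21 libraries in the fit.

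Outside the lists, the genes named for the lowest differences, among those measured in both systems, all rose in polyclonal cultures. Serpinf1, a secreted anti-angiogenic serpin, was 1.41, 2.75 and 1.56 RPKM in polyclonal acute, 164, 147 and 165 RPKM in polyclonal chronic, 10.1, 11.3 and 10.6 RPKM in OT-I acute and 7.23, 6.77 and 7.08 RPKM in OT-I chronic libraries. Only the polyclonal chronic libraries were high (difference -6.34, SE 0.182, adjusted p = 4.57e-11). Mgll, which breaks down the endocannabinoid 2-AG, was 0.2699, 0.727 and 0.479 RPKM in polyclonal acute, 19.4, 18.3 and 19.4 RPKM in polyclonal chronic, 11.04, 11.5 and 10.98 RPKM in OT-I acute and 1.32, 1.37 and 1.796 RPKM in OT-I chronic libraries. The groups did not overlap, and the effects had opposite signs (difference -6.05, SE 0.163). Next came the neuritin gene Nrn1 (-5.52), the gap junction gene Gja1 (-5.50), the neuropeptide receptor gene Calcrl (-5.37), the galectin gene Lgals7 (-4.98), the transglutaminase gene Tgm2 (-4.90) and the bHLH factor gene Msc (-4.87). Of these, Tgm2 was already at 36.8 ± 1.79 RPKM in OT-I acute libraries and 35.6 ± 0.801 RPKM in OT-I chronic ones, against 46.5 ± 3.56 RPKM in polyclonal chronic libraries.

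Genes named for the highest differences outside the lists fell in polyclonal cultures. Nod1, a cytosolic sensor of bacterial peptidoglycan, was 15.1, 14.7 and 13.5 RPKM in polyclonal acute, 0.462, 1.35 and 0.793 RPKM in polyclonal chronic, 8.39, 8.84 and 9.63 RPKM in OT-I acute and 29.5, 31.6 and 29.6 RPKM in OT-I chronic libraries. It fell and rose without overlap (difference 4.72, SE 0.186). Ly6c2, a surface marker of effector and memory CD8 T cells with a close copy, fell from 1315 ± 66.1 to 62.3 ± 8.91 RPKM in polyclonal cultures and was at 373 ± 30.4 and 361 ± 40.00 RPKM in OT-I ones, where the effect was not called (difference 4.34). The lysosomal sulfatase gene Arsb fell from 135 ± 7.19 to 9.47 ± 0.814 RPKM and rose from 20.5 ± 1.09 to 27.98 ± 1.06 RPKM (difference 4.13). Gipc2, a PDZ domain gene, had a difference of 4.42.

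Some genes responded to repeated stimulation by a like amount in both systems. A gene was counted here when both effects were called with the same sign and at least 2-fold and the 95% confidence interval of the difference lay within 0.5 of 0, and 24 higher (0.192%) and 26 lower genes (0.208%) met this. Rgs16, a brake on G protein signalling downstream of the TCR, was 21.1, 19.1 and 18.7 RPKM in polyclonal acute, 155, 158 and 161 RPKM in polyclonal chronic, 9.54, 9.51 and 10.2 RPKM in OT-I acute and 99.6, 101 and 101 RPKM in OT-I chronic libraries. Its effects of 2.95 and 3.24 were far larger than their difference of 0.29, which was called all the same (95% CI 0.13 to 0.45, adjusted p = 0.00614). Gadd45b, a stress-induced gene, rose from 11.7 ± 0.602 to 34.8 ± 1.54 RPKM and from 12.1 ± 0.656 to 34.7 ± 1.49 RPKM (95% CI -0.23 to 0.15). The GLUT6 gene Slc2a6 (95% CI -0.41 to 0.04) and Ccdc184 (-0.46 to 0.13) rose as well, as did the protease inhibitor gene Cst3 (-0.41 to 0.33). Among those that fell, lymphotoxin β RNA (Ltb) was 186, 148 and 150.5 RPKM in polyclonal acute, 37.96, 36.5 and 42.1 RPKM in polyclonal chronic, 271, 299 and 194 RPKM in OT-I acute and 60.5, 61.4 and 61.1 RPKM in OT-I chronic libraries. Both effects were -2.02 (95% CI of the difference -0.40 to 0.41). The autophagy gene Tecpr1 (-0.19 to 0.24), the glycogen phosphorylase gene Pygl (-0.48 to 0.29) and the small GTPase gene Rab37 (0.01 to 0.48) fell by like amounts too.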

How the data were processed

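RNA of 12 libraries in 4 groups (n = 3 each) was compared. Per the labels, a NEBNext Ultra kit was used on poly(A) RNA. In the submitters' processing notes stand bcl2fastq 2.17, HTSeq and edgeR, with mm9 as the build and no role or order. The sources used here do not name an aligner, annotation, strand setting or gene filter, so reads of antisense or overlapping partners may be mixed. The authors deposited 1 table of RPKM values, which is matched to samples by column name.

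From these values log2(RPKM + 1) was computed, with 1 as pseudocount. The 12515 genes that reached RPKM 1 in at least 3 of 12 libraries entered 1 fit with limma 3.58.1 in R 4.3.3. It had a mean per group, an empirical Bayes trend, 8 residual degrees of freedom and no replicate block. Tests were two-sided, with Benjamini-Hochberg adjustment over all 12515 genes and calls at adjusted p under 0.05. Whole reads were recovered from the RPKM for 100% of 13202 genes within 0.001 reads and gave the depths, which set the precision of low genes. The test was checked on simulated data.

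Members, gene lists and named genes were chosen with earlier results of these data known. Named were the 10 highest and 10 lowest differences, genes moved in opposite directions or alike, up to 3 members per list and a fixed set of 16; some are left out, and 1 gene of the sterol list is not reported here by name. Other genes of the lists are given as examples chosen after their values were seen. Alternatives were another pseudocount, filters, rescaling, all 21 libraries, the block, a 2-fold threshold, voom on recovered reads and leaving out each library. Leaving out 3 libraries with raised low genes was added after seeing the data.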

Additional observations from a re-analysis of the deposited data

Results flagged for a closer look

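The effect of repeated stimulation differed in sign between the systems, with all 3 tests called, for 486 genes that rose in OT-I and fell in polyclonal cultures and for 663 genes that did the reverse. These genes came up because the difference of the effects was itself tested in the fit. Of those that rose in OT-I cultures, the differences were 5.43 for Eomes, 4.72 for Nod1, 4.42 for Gipc2, 4.17 for Ifit2, 4.06 for Xcl1, 3.07 for Tmem37, 3.01 for H2-Q10 and 2.65 for Emilin2. In each pair of values below, polyclonal cultures come first and OT-I cultures second. Tmem37 fell from 4.100 ± 0.8296 to 0.535 ± 0.136 RPKM and rose from 2.04 ± 0.792 to 6.56 ± 0.364 RPKM. H2-Q10, a secreted MHC class I gene with close copies, fell from 27.9 ± 2.02 to 7.77 ± 1.27 RPKM and rose from 6.75 ± 0.558 to 17.9 ± 1.44 RPKM. The matrix gene Emilin2 fell from 34.2 ± 2.51 to 12.2 ± 0.232 RPKM and rose from 17.4 ± 0.7398 to 42.1 ± 0.927 RPKM.

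Of those that rose in polyclonal cultures, the differences were -6.05 for Mgll, -4.21 for Nupr1, -4.02 for Atf5, -3.99 for Cpeb1, -3.91 for Prss12, -3.78 for Ptgir, -3.36 for Trib2 and -3.24 for Avil. The prostacyclin receptor gene Ptgir rose from 4.35 ± 0.788 to 20.1 ± 0.283 RPKM and fell from 4.43 ± 0.0837 to 0.567 ± 0.0926 RPKM. The pseudokinase gene Trib2 rose from 7.04 ± 0.473 to 26.9 ± 1.47 RPKM and fell from 5.54 ± 0.226 to 1.21 ± 0.205 RPKM. Cpeb1, a regulator of mRNA translation, rose from 0.936 ± 1.18 to 6.45 ± 1.57 RPKM and fell from 10.99 ± 2.02 to 2.19 ± 0.184 RPKM. Marker RNA of CD4 T cells, B cells and melanoma cells moved in the same libraries, and its part was not tested.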

How the results depend on the processing

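Counts of calls over all genes stayed within 1.5 times under 251 of 264 repeats. The exceptions follow. With a 2-fold threshold the difference was called for 754 genes, 286 higher and 468 lower, the OT-I effect for 230 (136 higher, 94 lower) and the polyclonal effect for 935 (561 higher, 374 lower). Opposite directions then held for 5 genes that rose in OT-I and 8 that rose in polyclonal cultures, and 13 moved alike, because a stricter threshold admits fewer genes. Without the 3 libraries with raised low genes, 1016 genes moved opposite with a rise in polyclonal cultures. Leaving out each library gave 5281 to 6287 called differences (2465 to 3059 higher, 2816 to 3564 lower), 380 to 542 and 538 to 817 genes with opposite directions, and 40 to 51 moved alike. Groups share replicate numbers, but same-numbered libraries deviated together in polyclonal cultures only (r of 0.444, 0.628 and 0.166, against 0.0539, -0.171 and -0.0389 in OT-I cultures). Not every library correlated best with its own number. The r of 0.628 was between polyclonal acute library 2 and polyclonal chronic library 2, both with raised low genes. The replicate block, with 4 residual degrees of freedom, gave 6254 calls against 6002, 2952 higher and 3302 lower, and voom on recovered reads gave 5898. List counts moved by over 1.5 times in 89 of 1188 repeats, those with the 2-fold threshold included. For named genes, 49 of 2760 repeats lost the call of the difference, 10 gained a call and 23 turned its sign. Signs turned only for uncalled differences near 0. These were Pygl with a pseudocount of 0.1 (0.0635) and with voom (0.129), and Gadd45b (0.0047), Cst3 (0.0073) and Abcg3 (0.0017) after rescaling. Without the 3 libraries Ltb was at -0.17 and Abcg3 at 0.13. Leaving out 1 library, differences ranged from -0.18 to 0.13 for Ltb, from -0.041 to 0.0799 for Tecpr1, from -0.18 to 0.045 for Cst3, from -0.23 to 0.017 for Pygl and from -0.10 to 0.072 for Abcg3. Depth limits genes under about 1 RPKM in polyclonal acute library 2, the shallowest at 5347355 reads.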

Other observations

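A further experiment of the series gives a view of the same genes in other libraries. There C57BL/6 cells with vehicle were compared between chronic and acute stimulation, in a fit of all 21 libraries. Of all 12515 genes 3052 were higher and 4331 lower. Of the 486 genes that rose in OT-I and fell in polyclonal cultures, 104 were higher and 301 lower in vehicle cells, and of the 663 that did the reverse 349 were higher and 128 lower. Of the 24 genes raised alike in both systems 20 were also higher with vehicle, and of the 26 lowered alike 17 were lower.

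Among the lists, the 36 DNA replication genes were all called lower with vehicle (median effect -0.95), as were 28 of 29 mitosis genes (-1.06) and all 14 interferon-γ induced GTPases (-1.78). Of the 32 ATF4 list genes 16 were higher and 6 lower. Perforin RNA (Prf1) had a vehicle effect of 4.32, close in size to its OT-I effect of 4.89, while its polyclonal effect was 0.25. Eomes had a vehicle effect of -0.11, between those of the other systems. The coreceptor genes moved in vehicle cells against their direction in polyclonal cultures. Cd8a rose from 87.1 ± 1.76 to 145 ± 1.37 RPKM, and Cd4 fell from 13.9 ± 0.888 to 2.39 ± 0.236 RPKM. The vehicle effects of Ccl22 (-0.12) and Cxcl9 were not called. These are descriptions, and no difference from the vehicle experiment was tested here.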
